A study of Schizosaccharomyces pombe
Saccharomyces cerevisiae with 24 samples.

Results

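RNA that carried 4-thiouracil (4sU) was compared with total RNA of the same yeast cultures after 60 min in galactose. The members were chosen by their labels and comprised 4 of the 24 libraries of the series, 2 of labeled RNA and 2 of total RNA from cells given 4sU. The cells were diploid W303 Saccharomyces cerevisiae, grown in raffinose medium before galactose was added, and both fractions of a replicate came from a single culture and a single RNA preparation. Cells received 4sU for the last 6 min of culture. The same 2 fractions from cells without 4sU at 60 min (4 libraries) gave the background of the pull-down, and the same fractions with 4sU at 20 min (4 libraries) gave an earlier time. By the protocol, aliquots of 1 culture gave both times, with and without 4sU, so these arms share their cultures. Schizosaccharomyces pombe cells, themselves labeled, were added to every culture as a spike-in, and each group had 2 biological replicates. All groups shared this strain background.

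4sU is a uracil analog that yeast cells take up and build into RNA as it is made. Its thiol group can be coupled to biotin, so that RNA made during the pulse binds to streptavidin beads and forms the labeled fraction, while older RNA stays in the flow-through. In such a design, RNAs that are made and degraded quickly take a larger share of labeled than of total RNA, and RNAs that persist for many hours, such as small nuclear and nucleolar RNAs, take a smaller share. The ratio is relative: every value below compares a gene with the other genes of the same 2 libraries, because the spike-in passes through the pull-down as well and gives no common scale for the 2 fractions. A lower ratio therefore cannot be told apart from a higher ratio of the other RNAs.

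Raw counts over 7127 features summed to 6600472 and 8910544 in the labeled libraries and to 25744071 and 5510136 in the total RNA libraries (replicates 1 and 2 in each pair). Replicate 2 of total RNA was thus counted far less deeply than replicate 1, and RNAs of low abundance rest on few counts there. The labels call the replicates biological replicates and do not say that they were separate cultures, so the p-values measure the spread between these samples, which may be technical. Levels are given as CPM (counts per 1000000 counts of a library) with library sizes scaled by the trimmed mean of M-values (TMM), and ratios as the log2 of labeled over total from edgeR, with the standard error (SE). A gene was called at a Benjamini-Hochberg adjusted p under 0.05 over all genes tested in edgeR's quasi-likelihood test.

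The labeled fraction was mostly messenger RNA. Nuclear open reading frames (ORFs) held 88.3% and 90.9% of the counts in labeled RNA, against 40.6% and 43.5% in total RNA. Genes of the mitochondrial genome, whose identifiers begin with Q0, held 4.86% and 3.86% in labeled RNA, against 37.97% and 36.7% in total RNA. The Q0 class was set by identifier alone and was not split into messenger and ribosomal RNA. Each of these classes was separated between the fractions by far more than its replicates differed. Small nucleolar RNAs (snoRNAs), which guide the modification and cleavage of ribosomal RNA, held 1.47% and 0.958% in labeled RNA, against 7.90% and 7.91% in total RNA. The RNAs of RNase P, RNase MRP and the signal recognition particle together held 1.45% and 0.632% in labeled RNA, against 6.92% and 6.74% in total RNA. Spliceosomal small nuclear RNAs (snRNAs) held 0.554% and 0.408% in labeled RNA, against 3.79% and 3.16% in total RNA. These 3 classes of stable noncoding RNA were all lower in both labeled libraries than in either total RNA library. Nuclear ribosomal RNA genes and their spacers, which the library preparation depletes, held 3.30% and 3.20% in labeled RNA, against 2.82% and 1.957% in total RNA. ORFs and Q0 genes differed in the same direction, by less, without 4sU. ORFs then held 60.8% and 71.2% of labeled RNA, against 41.6% and 38.3% of total RNA. Q0 genes held 20.95% and 21.3%, against 36.1% and 41.9%. snoRNAs and snRNAs were also lower in labeled RNA there. The RNAs of RNase P, RNase MRP and the signal recognition particle overlapped, at 8.17% and 1.91%, against 8.02% and 5.53%. How much of the shift with 4sU came from the label was not tested. The 95% Wilson interval of each share extended at most 0.0880 percentage points to either side, which covers counting error only.

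**Figure D1:**
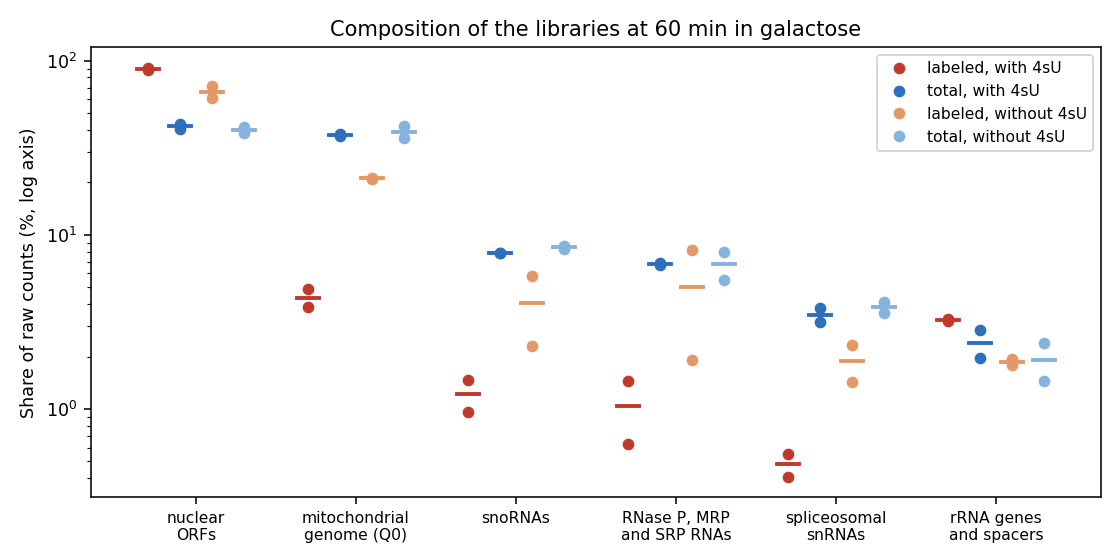
Share of raw counts (percent, log axis) of 6 RNA classes in labeled and total RNA at 60 min, with and without 4sU. Points are the 2 replicates and bars their mean. With 4sU, ORFs took 88.3% and 90.9% of labeled RNA, against 40.6% and 43.5% of total RNA, and the other classes apart from nuclear ribosomal RNA were lower in labeled RNA.

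A few transcripts took a large part of total RNA. Q0158, a mitochondrial transcript, took 3.07% and 2.44% of the counts in labeled RNA, against 27.4% and 26.02% in total RNA. Q0020, of the same class, took 1.20% and 0.919%, against 8.53% and 8.46%. Q0158 and Q0020 thus held most of the counts of the Q0 class in both fractions, so the share of that class mainly describes them. Among ORFs, YBR020W took 1.35% and 1.20% of labeled RNA, against 0.395% and 0.532% of total RNA, and YBR019C took 1.13% and 1.24%, against 0.355% and 0.402%. Both were among the 12 most abundant features of labeled RNA and not among the 12 most abundant of total RNA. After TMM scaling, which adjusts for the room that the stable RNAs leave, neither ORF differed by the test. YBR020W had 8507 and 7233 CPM in labeled RNA, against 6448 and 7703 CPM in total RNA, a log2 ratio of 0.15 (SE 0.22, adjusted p = 0.61 from edgeR). YBR019C had a log2 ratio of 0.32 (SE 0.19, adjusted p = 0.19 from edgeR). The shares of counts and the scaled ratios therefore describe different quantities, and the tests below use the scaled ratios.

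Of 6401 genes tested, 2913 (45.5%) were called. Of these, 1618 (25.3%) were higher and 1295 (20.2%) lower in labeled than in total RNA, and 3301 genes had an unadjusted p under 0.05. The split depends on the scaling. With library sizes taken from the sum of nuclear ORF counts, 2038 genes were higher and 706 lower, and the median log2 ratio of all genes tested was 0.22, against -0.01 under TMM scaling. Against a minimum change of 1.5-fold, 1180 genes were called, 823 higher and 357 lower.

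Among nuclear ORFs, the messenger RNAs and dubious reading frames of the nuclear genome, 6153 of 6675 passed the filter on low counts and were tested. Of these, 1617 were higher and 1220 lower in labeled RNA. Of the 5247 ORFs with at least 10 counts in each of the 4 libraries, the middle 90% spanned log2 ratios from -0.98 to 1.53, a 5.71-fold range. In all, 764 lay above 1 and 253 below -1, while 72 lay above 2 and 15 below -2. More ORFs thus lay beyond these values on the side of high ratios. The extremes over all 5247, called or not, were -3.72 and 3.21. These counts depend on the scaling, since the median of these ORFs was -0.01 under TMM and 0.22 with library sizes from ORF sums. The ratios of replicates 1 and 2 had the same sign for 85.9% of these ORFs, and their median absolute difference was 0.20 on the log2 scale. Across these genes, which are no independent replicates, the ratios of the replicates correlated with a Spearman's rho of 0.875 and a Pearson's r of 0.859.

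**Figure D2:**
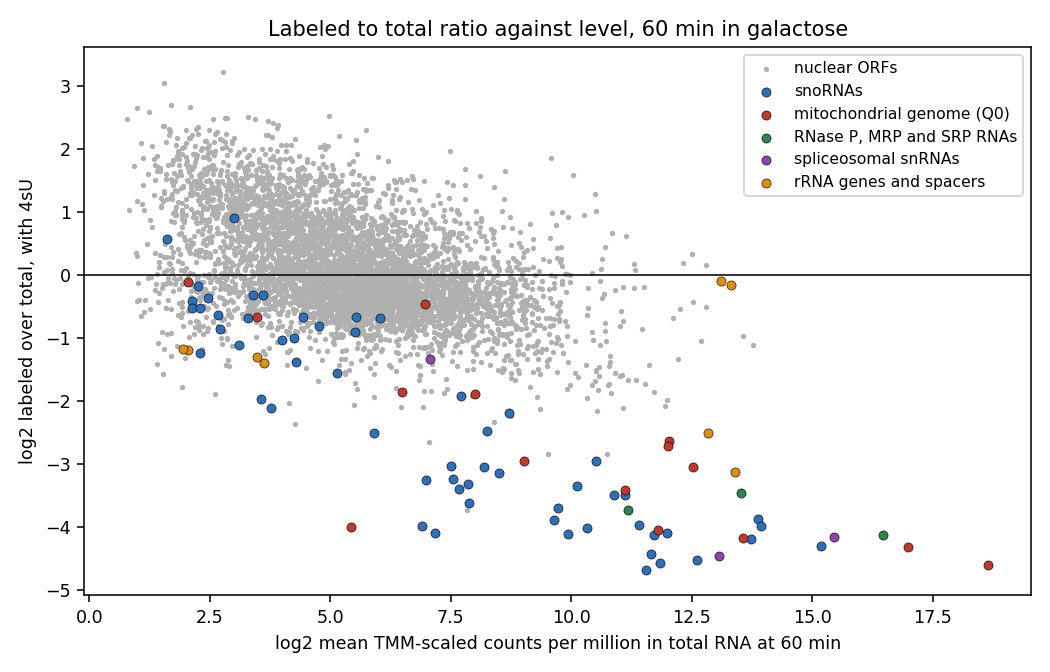
Log2 ratio of labeled to total RNA with 4sU at 60 min against the log2 mean TMM-scaled CPM in total RNA, for genes with at least 10 counts in each of the 4 libraries. Grey points are nuclear ORFs, whose middle 90% spanned -0.98 to 1.53, and coloured points are other RNA classes, of which snoRNAs reached -4.69 and mitochondrial genes -4.60.

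Less abundant messenger RNAs had higher ratios. The 5247 ORFs were split into quartiles by their level in total RNA of cells without 4sU, libraries that do not enter the ratio. From the least to the most abundant quartile the median log2 ratio was 0.78, 0.16, -0.16 and -0.43. In the least abundant quartile 701 of 1312 ORFs were higher and 27 lower, and in the most abundant one 113 of 1312 were higher and 689 lower. The medians of replicate 1 (0.77, 0.16, -0.16 and -0.42) and of replicate 2 (0.74, 0.22, -0.14 and -0.42) kept the same order. Across 4498 ORFs with at least 10 counts in all 8 libraries at 60 min, the ratio and the log level correlated with a Spearman's rho of -0.607, a description across genes of the same libraries. Gene length and uracil content were not analysed here.

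The 10 highest and 10 lowest ratios are given for ORFs that were called, had at least 10 counts in each library and had the same sign in both replicates. The highest were mostly ORFs of low abundance in total RNA. YDR320C had 18.5 and 24.3 CPM in labeled RNA, against 2.16 and 3.68 CPM in total RNA, an 8.26-fold higher level (log2 ratio 3.05, SE 0.33, adjusted p = 2.7e-05 from edgeR). YBL101C had 18.3 and 25.2 CPM in labeled RNA, against 3.55 and 2.89 CPM in total RNA (log2 ratio 2.70, SE 0.26, adjusted p = 1.4e-05 from edgeR). YMR043W had 26.7 and 32.7 CPM in labeled RNA, against 5.58 and 2.89 CPM in total RNA (log2 ratio 2.66, SE 0.28, adjusted p = 2.1e-05 from edgeR). In each of these ORFs both labeled libraries lay above both total RNA libraries, which their choice by high ratio favors. The total RNA values rest on 11 to 88 counts. YDR171W was the most abundant of the top 10, with 174 and 193 CPM in labeled RNA, against 38.7 and 23.9 CPM in total RNA, a 5.70-fold higher level (log2 ratio 2.51, SE 0.20, adjusted p = 4.6e-06 from edgeR). YOR221C, YLL010C, YPR125W, YMR296C and YAL043C, with log2 ratios of 2.64, 2.57, 2.51, 2.48 and 2.48, were called as well. The last of the 10, YOR309C (log2 ratio 2.47, adjusted p = 0.018 from edgeR), rested on 13 and 10 counts in total RNA, and its call was lost without replicate 2 of labeled RNA (adjusted p = 0.082) and without replicate 1 of total RNA (adjusted p = 0.24).

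The ORFs with the lowest ratios included several abundant ones. YPR132W had 321 and 339 CPM in labeled RNA, against 1473 and 1487 CPM in total RNA, a 4.48-fold lower level (log2 ratio -2.16, SE 0.19, adjusted p = 7.6e-06 from edgeR). YNL079C had 160 and 138 CPM in labeled RNA, against 699 and 603 CPM in total RNA (log2 ratio -2.13, SE 0.14, adjusted p = 2.5e-06 from edgeR). YER117W had 647 and 347 CPM in labeled RNA, against 2386 and 1924 CPM in total RNA (log2 ratio -2.12, SE 0.31, adjusted p = 0.00053 from edgeR). The groups did not overlap in any of these ORFs, which were picked for extreme ratios, so this is no separate result. YLR262C-A, YLR043C, YDR424C and YDL157C had log2 ratios of -2.33, -2.23, -2.10 and -2.09 and were called as well. The lowest value was that of YDL184C, with 234 and 242 CPM in labeled RNA, against 1392 and 2035 CPM in total RNA (log2 ratio -2.85, SE 0.57, adjusted p = 0.012 from edgeR). YDL133C-A had 71.5 and 133 CPM in labeled RNA, against 492 and 977 CPM in total RNA (log2 ratio -2.84, SE 0.72, adjusted p = 0.031 from edgeR). YLR154W-A had 6.02 and 2.22 CPM in labeled RNA, against 28.4 and 10.2 CPM in total RNA (log2 ratio -2.36, SE 0.65, adjusted p = 0.025 from edgeR). These last 3 were the least certain. Leaving out 1 library at a time raised the adjusted p up to 0.088 for YDL184C, 0.14 for YDL133C-A and 0.14 for YLR154W-A, with either labeled library left out for the first, either labeled library or replicate 2 of total RNA for the second, and replicate 2 of labeled RNA or replicate 1 of total RNA for the last. YLR154W-A was also not called with the replicate as a block (adjusted p = 0.080). Reads that map to several places were counted at each, so an ORF with a near-identical copy shares its counts with that copy.

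**Figure D3:**
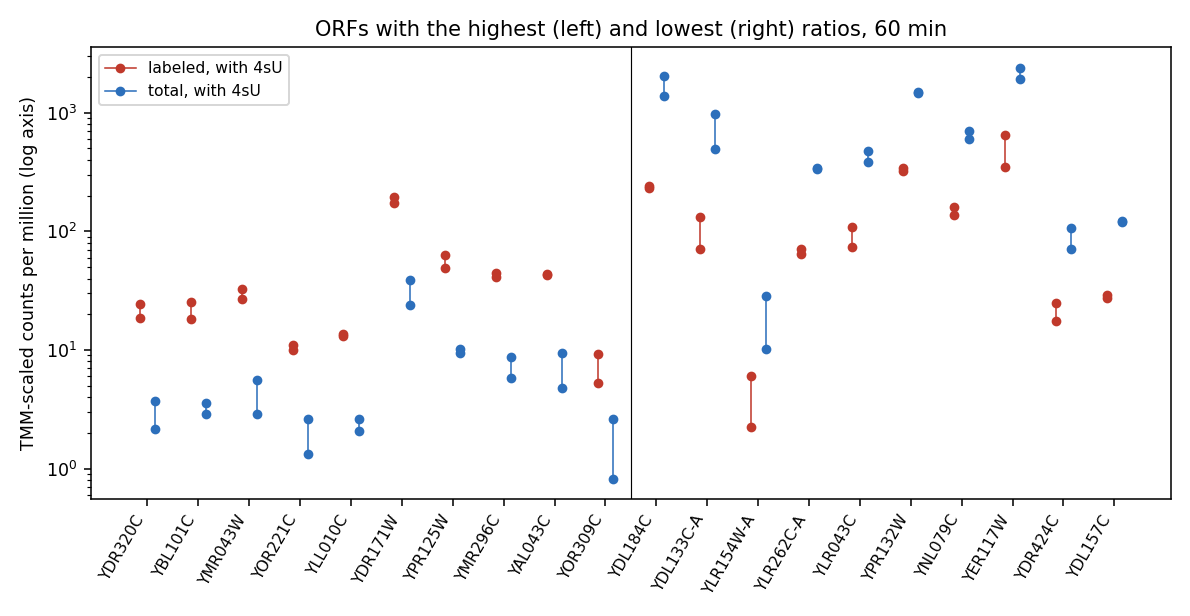
TMM-scaled CPM (log axis) in labeled and total RNA with 4sU at 60 min for the 10 ORFs with the highest and the 10 with the lowest ratios. Points are the 2 replicates, joined by a line. In each ORF both labeled libraries lie on the same side of both total RNA libraries, which the choice by ratio favors.

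The most abundant ORFs of total RNA moved less. YBR118W had 6517 and 6443 CPM in labeled RNA, against 14493 and 13443 CPM in total RNA, a 2.16-fold lower level (log2 ratio -1.11, SE 0.19, adjusted p = 0.00056 from edgeR). YPR080W had 6313 and 6030 CPM in labeled RNA, against 14391 and 9874 CPM in total RNA (log2 ratio -0.98, SE 0.27, adjusted p = 0.0098 from edgeR). Without replicate 2 of labeled RNA or without replicate 1 of total RNA YPR080W was not called (adjusted p up to 0.12). YHR055C had 4999 and 5028 CPM in labeled RNA, against 6921 and 7385 CPM in total RNA, and was not called (log2 ratio -0.51, adjusted p = 0.38 from edgeR).

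The study pairs 9 ORFs with gene names, of which 3 were higher, 3 lower and 3 not called. Over all genes 25.3% were higher and 20.2% lower. CYS4 (YGR155W), which encodes cystathionine beta-synthase, had 488 and 534 CPM in labeled RNA, against 209 and 238 CPM in total RNA (log2 ratio 1.20, SE 0.13, adjusted p = 2.7e-05 from edgeR). CSR2 (YPR030W) had 79.6 and 85.5 CPM in labeled RNA, against 31.9 and 25.5 CPM in total RNA (log2 ratio 1.503, SE 0.15, adjusted p = 2.0e-05 from edgeR). SUT2 (YPR009W) was higher at a log2 ratio of 1.08 (SE 0.39, adjusted p = 0.036 from edgeR), a call that ended without replicate 2 of labeled RNA (adjusted p = 0.24) and without replicate 1 of total RNA (adjusted p = 0.44). LOC1 (YFR001W), a nucleolar protein of ribosome assembly and messenger RNA localization, had 80.4 and 104 CPM in labeled RNA, against 176 and 162 CPM in total RNA (log2 ratio -0.88, SE 0.15, adjusted p = 0.00051 from edgeR). NVJ1 (YHR195W), which tethers the nucleus to the vacuole, and MEC3 (YLR288C), a subunit of the DNA damage checkpoint clamp, had log2 ratios of -0.78 (SE 0.15) and -0.75 (SE 0.16) and were called. The remaining 3 were RPS24A (YER074W), a protein of the small ribosomal subunit, at -0.41 (adjusted p = 0.085 from edgeR), ULA1 (YPL003W), part of an enzyme that activates a ubiquitin-like protein, at -0.47 (adjusted p = 0.089), and TOS3 (YGL179C), a kinase upstream of Snf1, at 0.11 (adjusted p = 0.81). The study also clustered genes by how long general transcription factors stayed bound at them. Its 10 clusters, with 1393 genes tested here, had median log2 ratios between -0.19 and 0.12. Between 24.8% and 40.0% of their members were higher and between 15.0% and 33.3% lower, beside 25.3% and 20.2% over all genes.

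RNAs encoded by the mitochondrial genome, which is transcribed inside the organelle by its own polymerase, were low in the labeled fraction. Of 31 features with Q0 identifiers, 20 were tested, and 11 were lower and 0 higher, beside 20.2% lower over all genes. The 15 with at least 10 counts in each library had a median log2 ratio of -2.95 and ranged from -4.60 to -0.12. Q0158 had 19353 and 14648 CPM in labeled RNA, against 446658 and 376793 CPM in total RNA, a 24.2-fold lower level (log2 ratio -4.60, SE 0.37, adjusted p = 5.1e-06 from edgeR). Q0020 was 20.0-fold lower (log2 ratio -4.32, SE 0.32) and Q0045 18.1-fold lower (log2 ratio -4.18, SE 0.21, with 708 and 621 CPM in labeled RNA, against 12048 and 12042 CPM in total RNA). Not all mitochondrial transcripts were equally low. Q0130 and Q0250 were 6.21-fold and 6.54-fold lower (log2 ratios -2.64 and -2.71), and Q0140, with 32.6 and 17.4 CPM in labeled RNA, against 91.5 and 87.2 CPM in total RNA, was not called (log2 ratio -1.85, adjusted p = 0.058 from edgeR). Features of that genome with other identifiers, among them transfer RNAs, had few counts. Of these, 23 were tested and 0 were called by edgeR, beside 45.5% of all genes, 0 at an unadjusted p under 0.05 and 0 by DESeq2. The 15 with at least 10 counts had a median of -0.34, at -0.14 in replicate 1 and -1.07 in replicate 2.

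The RNA components of large ribonucleoproteins were also low. SCR1, the RNA of the signal recognition particle, had 7540 and 2907 CPM in labeled RNA, against 98336 and 83906 CPM in total RNA, a 17.4-fold lower level (log2 ratio -4.12, SE 0.46, adjusted p = 4.8e-05 from edgeR). RPR1, the RNA of RNase P, was 10.97-fold lower (log2 ratio -3.46, SE 0.32), and NME1, the RNA of RNase MRP, was 13.3-fold lower (log2 ratio -3.73, SE 0.25). All 3 were lower in replicate 2 than in replicate 1 of labeled RNA, and the ratio of SCR1 was -3.71 in replicate 1 and -4.85 in replicate 2. Among the spliceosomal snRNAs, LSR1, which is U2, had 2980 and 2082 CPM in labeled RNA, against 52237 and 37912 CPM in total RNA (log2 ratio -4.15, SE 0.32, adjusted p = 4.4e-06 from edgeR). snR19, which is U1, was 22.03-fold lower (log2 ratio -4.46, SE 0.26). snR14, which is U4, had 74.1 and 31.9 CPM in labeled RNA, against 132 and 135.3 CPM in total RNA, and was not called (log2 ratio -1.34, adjusted p = 0.059 from edgeR). It was called with DESeq2 (adjusted p = 0.00026) and without either labeled library (adjusted p = 0.00060 without replicate 1 and 0.047 without replicate 2). snR6 and snR7-L had at most 7 counts in any of the 4 libraries, too few to place them.

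Of 76 snoRNAs, 67 were tested and 58 had at least 10 counts in each library. Of the 67, 44 were lower and 1 was higher in labeled RNA, beside 20.2% lower and 25.3% higher over all genes, and the median over the 58 was -2.73. snR17a, a U3 snoRNA required for the first cleavages of the ribosomal precursor, was the most abundant one, with 2515 and 1239 CPM in labeled RNA, against 40463 and 33924 CPM in total RNA, a 19.8-fold lower level (log2 ratio -4.31, SE 0.40, adjusted p = 1.5e-05 from edgeR). snR37 and snR190 were 15.8-fold and 14.7-fold lower (log2 ratios -3.98 and -3.88). The lowest values were those of snR46, at 25.8-fold lower (log2 ratio -4.69, SE 0.39), and snR31, at 23.8-fold lower (log2 ratio -4.57, SE 0.39), both of which guide pseudouridylation. snR39B was the sole snoRNA called higher, with 14.2 and 16.2 CPM in labeled RNA, against 8.43 and 7.62 CPM in total RNA (log2 ratio 0.91, SE 0.24, adjusted p = 0.0086 from edgeR), and without replicate 2 of labeled RNA its adjusted p was 0.060.

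The 2 families of snoRNAs had different values. Box H/ACA snoRNAs guide pseudouridylation, box C/D snoRNAs guide 2'-O-methylation, and members of each also act in cleavage of the precursor. This division was made after the values were seen, so it carries no test. Of 27 box H/ACA RNAs tested, 24 were lower and 0 higher, beside 20.2% lower and 25.3% higher over all genes, and the median over 26 with at least 10 counts was -3.79, at -3.48 in replicate 1 and -4.08 in replicate 2. Of 40 box C/D RNAs tested, 20 were lower and 1 higher, and the median over 32 was -0.88, at -0.76 in replicate 1 and -1.08 in replicate 2. Among these, the 9 with log2 ratios under -2 had 13.7 to 37193 CPM in total RNA. The other 23 had 3.05 to 65.2 CPM, so most box C/D values near the median come from RNAs with few counts. Whether the families differ at equal abundance was not tested. snR128, which is U14, had few counts, with 4.30 and 3.91 CPM in labeled RNA, against 2.16 and 3.94 CPM in total RNA (log2 ratio 0.57, adjusted p = 0.36 from edgeR). Of 8 snoRNAs encoded inside introns, 0 passed the filter on low counts. Reads were counted over whole genes with introns, so these RNAs overlap their host genes. The result is therefore no measure of their abundance.

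**Figure D4:**
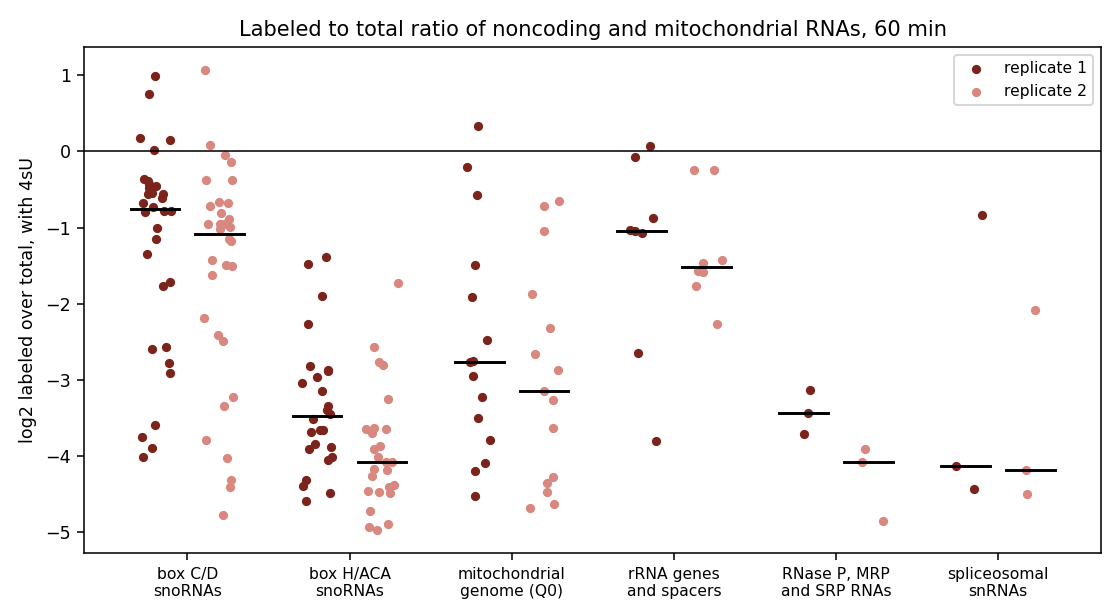
Log2 ratios of labeled to total RNA with 4sU at 60 min in each replicate, for RNAs of 6 classes with at least 10 counts in each library. Points are genes and black lines medians, which for box H/ACA snoRNAs lie at -3.48 and -4.08 and for box C/D snoRNAs at -0.76 and -1.08.

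The spacer of the ribosomal precursor contrasted with these stable RNAs. ETS1-1, the 5' external transcribed spacer that is cut from the precursor and degraded, had 9467 and 8827 CPM in labeled RNA, against 9965 and 10412 CPM in total RNA, and was not called (log2 ratio -0.16, SE 0.20, adjusted p = 0.58 from edgeR). The second copy, ETS1-2, to which the same reads can map, gave -0.09 (adjusted p = 0.77). In CPM of nuclear ORF counts alone, ETS1-1 stood at 16990 and 16161 in labeled RNA, 1519 and 1507 in unlabeled RNA and 15048 and 16530 in total RNA, so both unlabeled libraries lay far below the others. On the same scale snR17a stood at 4514 and 2269 in labeled RNA, 188677 and 155659 in unlabeled RNA and 61103 and 53858 in total RNA. The spacer was thus lowest and the stable snoRNA highest in the unlabeled fraction. The median log2 ratios of unlabeled over total RNA in replicates 1 and 2 were 2.14 and 1.22 for box H/ACA RNAs, but -0.22 and -0.70 for box C/D RNAs, the family of snR17a. They were -1.69 and -1.91 for nuclear ribosomal RNA features and -1.40 and -1.44 for nuclear ORFs. These values share the total RNA libraries with the ratios above and carry no test. Of the precursor units, RDN37-2 was lower in labeled RNA (log2 ratio -2.51, adjusted p = 0.0010 from edgeR), and RDN37-1 was not called (log2 ratio -3.13, adjusted p = 0.060). RDN37-1 had 286568 and 12991 raw counts in the total RNA replicates, a difference that leaves its ratio uncertain, and without replicate 2 of total RNA it was called (adjusted p = 0.0019). Over all 22 nuclear ribosomal RNA features, 11 were tested, of which 6 were lower and 0 higher, beside 20.2% lower and 25.3% higher over all genes. Nuclear transfer RNA genes were hardly counted. Of 273, 106 were tested and 9 were lower and 0 higher, beside the same 20.2% and 25.3%, and 3 had at least 10 counts in each library. Among 13 other noncoding RNAs tested, 0 were called by edgeR, beside 45.5% of all genes, 0 at an unadjusted p under 0.05 and 0 by DESeq2, and the 5 with at least 10 counts had log2 ratios between -0.57 and 0.20.

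The background of the pull-down was small in amount. After scaling by S. pombe reads, which compares labeled libraries with each other, the sum of labeled RNA without 4sU was 3.75% and 1.80% of that with 4sU in replicates 1 and 2. For nuclear ORFs the background was 2.58% and 1.41% of the labeled signal with 4sU. It was larger for the RNAs with the lowest ratios, at 16.2% and 9.94% for mitochondrial genes, 15.8% and 6.34% for snRNAs, 14.7% and 4.33% for snoRNAs and 21.1% and 5.43% for the RNAs of RNase P, RNase MRP and the signal recognition particle. Part of the labeled counts of these RNAs was thus also found without 4sU. With that background subtracted, an alternative chosen after seeing the data, the median log2 ratio was -3.04 for mitochondrial genes, -2.89 for snoRNAs and -4.34 for snRNAs, against -2.95, -2.73 and -4.15 without subtraction.

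Among ORFs, the composition of that background was nearer to labeled than to total RNA. Across 4498 ORFs, Spearman's rho between levels was 0.907 for labeled RNA without 4sU and labeled RNA with 4sU, and 0.740 for labeled and total RNA without 4sU, a description across genes. Without 4sU, 3218 of 6204 genes tested (51.9%) were called between the labeled and the total fraction, 1627 higher (26.2%) and 1591 lower (25.6%). Of the genes higher with 4sU and tested in both, 1249 of 1615 were also higher without it, 77.3% of the first list and 76.8% of the second, and 3 were lower. Of those lower with 4sU, 997 of 1293 were also lower without it, 77.1% and 62.7% of the lists, and 17 were higher. Over the same ORFs the ratios with and without 4sU, which share cultures but no library, correlated with a Spearman's rho of 0.851, and 85.3% had the same sign. With 4sU the middle 90% of these ORFs lay between -1.005 and 1.47, and without 4sU they lay more widely, between -1.49 and 2.21. All of the 10 ORFs with the highest ratios were also higher without 4sU, at log2 ratios from 2.399 to 4.04. Several of these values rest on few counts in total RNA without 4sU. YDR320C, at 4.04, had 7 and 5 counts there and YOR309C 1 and 6, while YDR171W had 46 and 41. Of the 10 with the lowest ratios, 7 were also called lower without 4sU, the exceptions being YDL133C-A, YLR043C and YLR154W-A, the last with a log2 ratio of 1.70 without 4sU. How the 4sU label and the binding of unlabeled RNA each contribute to an ORF's ratio was not tested beyond these values.

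A test of the difference itself called 382 of 6204 genes (6.16%), 111 (1.79%) with a higher and 271 (4.37%) with a lower ratio with 4sU than without, and 1382 genes had an unadjusted p under 0.05. With the replicate as a block, 876 genes were called, 332 higher and 544 lower. With library sizes from ORF sums the split turned, with 362 higher and 192 lower, since that scaling moved the median difference over all genes to 0.24. Each of the 8 libraries moved this count when left out, to 590 without replicate 1 of labeled RNA without 4sU and to between 104 and 254 without any other library. YHR219W had 61.8 and 52.2 CPM in labeled RNA, against 52.0 and 51.5 CPM in total RNA, with 4sU, while without 4sU it had 14.6 and 10.4 CPM in labeled RNA, against 54.3 and 65.5 CPM in total RNA. The levels with and without 4sU come from separate scalings. Its difference of log2 ratios was 2.38 (SE 0.32, adjusted p = 0.0020 from edgeR), and 18 and 14 counts lay behind the labeled values without 4sU. YOR213C and YDL129W followed with 1.80 and 1.71, and YDL129W was not called without replicate 1 of total RNA with 4sU or without replicate 2 of either fraction without 4sU (adjusted p from 0.052 to 0.063). snR82 gave the largest negative difference of the genes called with at least 10 counts in every library. It had 75.5 and 35.2 CPM in labeled RNA, against 211 and 209 CPM in total RNA, with 4sU, and 1016 and 799 CPM in labeled RNA, against 144 and 172 CPM in total RNA, without 4sU. The difference was -4.48 (SE 0.47, adjusted p = 0.0025 from edgeR). YGR161W-B (-3.86) and YLR154W-C (-3.69) had the same pattern, with ratios of 3.50 and 1.60 without 4sU. On the S. pombe scale, labeled snR82 without 4sU was 33.2% and 30.9% of that with 4sU in replicates 1 and 2. Its amount was thus lower without 4sU, although its TMM-scaled CPM was higher. For YGR161W-B the percentage was 7.89% and 2.41%. For YLR154W-C it was 38.7% and 17.4%, against 2.58% and 1.41% for nuclear ORFs as a class. YLR154W-C was not called with the replicate as a block (adjusted p = 0.083), nor without either labeled library with 4sU, replicate 1 of total RNA with 4sU or replicate 2 of labeled RNA without 4sU (adjusted p from 0.057 to 0.11). YLR154W-A (-4.09, adjusted p = 0.083) and snR5 (-3.90, adjusted p = 0.11) had negative differences of similar size and were not called. Some of the stable RNAs were also lower relative to this background. Q0158 differed by -3.09 (SE 0.44, adjusted p = 0.0023 from edgeR) and LSR1 by -2.52 (adjusted p = 0.0058), while snR17a, with 17671 and 4528 CPM in labeled RNA without 4sU, differed by -2.50 without being called (adjusted p = 0.20). All 26 box H/ACA RNAs with at least 10 counts had a lower ratio with 4sU than without it, and 5 of the 27 tested were called, beside 4.37% of all genes. Of 32 box C/D RNAs, 18 had a lower ratio with 4sU, and 2 of the 40 tested were called. The share of all genes with a lower ratio with 4sU was not counted. Over genes with at least 10 counts in each of the 4 libraries with 4sU, the median difference was 0.006. It was -2.22 for the box H/ACA and -0.34 for the box C/D RNAs among them. SCR1, RPR1 and NME1 differed by -3.23, -0.76 and -0.97 and were not called (adjusted p = 0.22, 0.61 and 0.080).

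**Figure D5:**
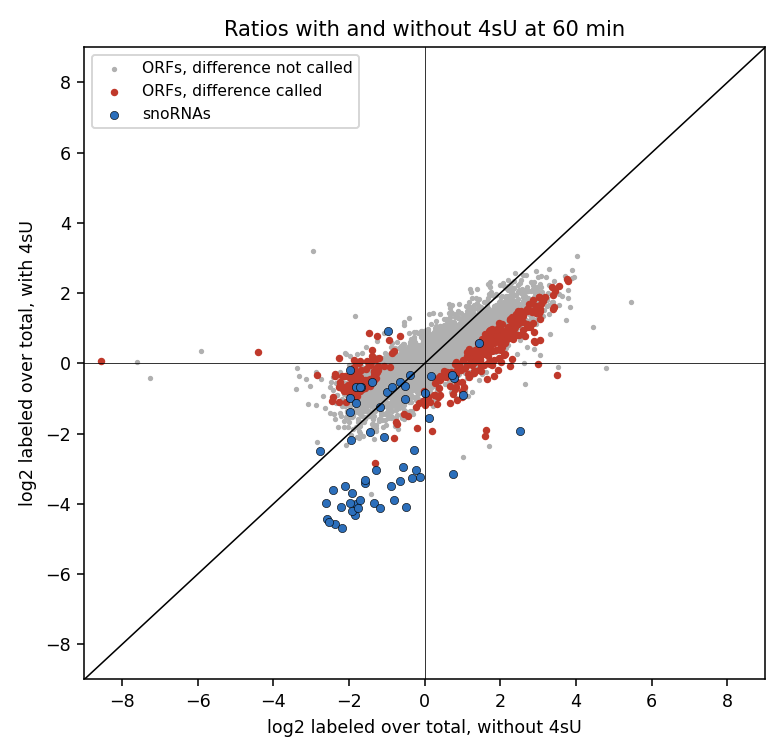
Log2 ratio of labeled to total RNA at 60 min with 4sU (vertical axis) and without 4sU (horizontal axis) for ORFs and snoRNAs with at least 10 counts in each of the 4 libraries with 4sU. The line marks equal ratios, red points are ORFs whose difference was called (110 higher and 253 lower with 4sU over all ORFs tested, including those not drawn), and the ORFs spread more widely along the horizontal axis.

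The ratios at 60 min were close to those at 20 min. At 20 min, 3475 of the same 6401 genes (54.3%) were called, 1875 higher (29.3%) and 1600 lower (25.0%). Of the genes called at 60 min, 1456 of the 1618 higher ones (90.0%) and 1190 of the 1295 lower ones (91.9%) were called in the same direction at 20 min, which is 77.7% and 74.4% of the lists at 20 min. Across 4957 ORFs with at least 10 counts in these 8 libraries, the ratios at the 2 times, which share cultures but no library, correlated with a Spearman's rho of 0.937. The median of the 15 mitochondrial genes was -2.95 at 60 min and -3.67 at 20 min, and that of the 58 snoRNAs was -2.73 at 60 min and -3.16 at 20 min.

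A difference between the times was called for 4 of the 6401 genes (0.0625%), all with a higher ratio at 60 min and 0.00% with a lower one, and 646 genes had an unadjusted p under 0.05. With the replicate as a block 48 genes were called, 41 higher and 7 lower, and with DESeq2 55, 48 higher and 7 lower. Without replicate 2 of labeled RNA at 60 min 17 genes were called (14 higher, 3 lower), without replicate 2 of total RNA at 60 min 7 (3 higher, 4 lower), and without replicate 1 of labeled RNA at 20 min 2, both higher. The direction was also mixed without replicate 1 of total RNA at 20 min (3 higher, 2 lower) and at 60 min (3 higher, 1 lower). YFL014W had 92.8 and 96.7 CPM in labeled RNA, against 168 and 193 CPM in total RNA, at 60 min, and 39.4 and 53.1 CPM in labeled RNA, against 636 and 592 CPM in total RNA, at 20 min. Its log2 ratio was -0.93 at 60 min and -3.74 at 20 min, a difference of 2.81 (SE 0.22, adjusted p = 0.00010 from edgeR). Its labeled RNA was higher and its total RNA lower at 60 than at 20 min. YML128C showed the same with 64.1 and 51.4 CPM in labeled RNA, against 96.6 and 86.2 CPM in total RNA, at 60 min, and 25.5 and 36.3 CPM in labeled RNA, against 238 and 207 CPM in total RNA, at 20 min (difference 2.19, SE 0.26, adjusted p = 0.0052 from edgeR). YPR160W had ratios of -0.19 at 60 min and -1.82 at 20 min (difference 1.63, SE 0.21, adjusted p = 0.0071 from edgeR), and YML110C of -1.19 at 60 min and -2.48 at 20 min (difference 1.28, SE 0.20, adjusted p = 0.038 from edgeR). In YML110C the labeled level was nearly the same at both times, with 57.1 and 63.0 CPM at 60 min and 56.7 and 61.7 CPM at 20 min, while total RNA had 140 and 135.1 CPM at 60 min and 362 and 296 CPM at 20 min. Without replicate 1 of labeled RNA at 20 min YPR160W was not called (adjusted p = 0.073), and YML110C was not called without any 1 of 6 of the 8 libraries (adjusted p up to 0.35), the exceptions being replicate 2 of labeled RNA at 60 min and replicate 2 of total RNA at 20 min.

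The labelled cell type could not be checked with these data. RME2, RME3 and IRT1, noncoding RNAs of haploid cells that were chosen after their values were seen, had at most 2.66 CPM in any of the 4 libraries. No haploid cells were measured beside them, so these levels do not decide the cell type. Lists of haploid-specific genes by symbol were not analysed here.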

How the data were processed

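The authors aligned reads with HISAT2 2.0.4 and deposited raw counts per gene (featureCounts, strand-specific, over whole genes with introns, multi-mapping reads counted), build R64, and a signal table of the same counts divided by S. pombe reads per 2000000. Tests used the counts, and the S. pombe-scaled signal served only to set labeled libraries with and without 4sU side by side. A gene entered a fit when 50% or more of its libraries held a nonzero count, and was tested with edgeR 4.0.16 (R 4.3.3; TMM factors, robust quasi-likelihood fit, Benjamini-Hochberg adjustment). One fit held labeled and total RNA with 4sU at 20 and 60 min, and another labeled and total RNA at 60 min with and without 4sU, as 4 groups of 2 libraries each. DESeq2 1.42.0, other scalings, filters and sample sets, the replicate as a block and each library left out were alternatives. The procedure was run on simulated counts in which few genes changed, equally many in each direction. That setting differs from these data, in which 45.5% of genes were called at 60 min, so it does not test the scaling. Ratios of single replicates added 0.5 counts.

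Named genes had at least 10 counts in each of the 4 libraries, passed the threshold and had the same sign in both replicates: the 10 highest and 10 lowest ORFs and the 3 highest and 3 lowest other RNAs (1 other RNA was higher). Beside them stand the 3 most abundant members of each class, or all where a class has at most 10, the 9 ORFs named in the study, and the 3 largest called differences in each direction for time and 4sU. The box C/D and H/ACA lists, ETS1-2, YBR020W, YBR019C, RDN37-2, YML110C, snR5, Q0130, Q0140, Q0250, snR128 and the haploid RNAs were added after their values were seen. Members and lists were chosen with earlier results of these data known. Gene symbols other than these, gene lengths, sequences and haploid marker genes were not analysed here.

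Labeled and total RNA of a number came from the same culture and RNA, per the protocol, so the numbers pair the samples. Their deviations from group means correlated at 0.366 (60 min) and 0.219 (20 min) over 5052 genes. Replicates differed by more than sampling noise (chi-square per degree of freedom from 20.6 to 61.7). Raw counts ran from 1073888 to 38373886 over the 24 libraries, and the labeled libraries without 4sU at 60 min had 1182409 and 1073888.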

Additional observations from a re-analysis of the deposited data

Results flagged for a closer look

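The labeled to total ratio differed between 60 and 20 min in 4 genes by the test of the difference itself: YFL014W by 2.81, YML128C by 2.19, YPR160W by 1.63 and YML110C by 1.28 on the log2 scale, in each case higher at 60 min and in the same direction in both replicates. The ratio differed between cells with and without 4sU at 60 min in 382 genes. The largest differences among those called with at least 10 counts in every library were those of YHR219W (2.38), YOR213C (1.80) and YDL129W (1.71), and of snR82 (-4.48), YGR161W-B (-3.86) and YLR154W-C (-3.69). What lies behind these differences was not tested.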

How the results depend on the processing

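For labeled against total RNA at 60 min, the count of 2913 moved to 969 with all 24 libraries in the fit (698 higher, 271 lower) and to 1180 against a 1.5-fold minimum, and each library left out gave 1980 to 2493. The counts at 20 min (2726 to 3138 with each library left out) and without 4sU (2550 to 3046) moved by less than 1.5 times under the alternatives run for them, which did not include all 24 libraries or the 1.5-fold minimum. The count for the change between times moved to 55 with DESeq2 and 48 with the replicate block (2 to 17 with each library left out), and the count for the 4sU-dependent part to 876 with the replicate block (104 to 590 with each library left out). The block gave 3187, 3706 and 3483 genes at 60 min, at 20 min and without 4sU. ORF sums changed the split at 60 min to 2038 higher and 706 lower, at 20 min to 2536 and 1002 (against 1875 and 1600), and for the 4sU-dependent part to 362 and 192. Of 61 named genes at 60 min, 12 lost a call under at least 1 alternative and 6 gained one. Apart from the calls of YLR154W-A and YLR154W-C, the block changed no other call of a named gene, and no called value changed sign. The causes were not tested. Where an arm kept 1 library, its spread was taken from the other groups. Depth limits RNAs with few counts in replicate 2 of total RNA (5510136 counts) and in labeled RNA without 4sU. Checks on gene length, uracil content and introns were not run.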
